A study of Mus musculus with 4 samples.

Results

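The lysosomal gene set described here holds 37 genes: membrane proteins of the lysosome, its proton pump, cathepsins, glycosidases, lipid hydrolases with their activator proteins, progranulin and the 2 lysozymes. A gene was taken where the platform annotation gave a probe set exactly 1 gene symbol and that symbol was on the list. This found 36 of the 37 genes, read by 61 of the 22626 probe sets on the array. Cd63 was not analysed here. The cells were 3T3-F442A, a mouse preadipocyte line that turns into fat cells in culture. The 2 control arrays carried shGFP, a hairpin RNA against a protein that mouse cells lack. The 2 arrays of the other group carried shTRPV4, a hairpin against Trpv4, which encodes a calcium-permeable cation channel. Both groups shared everything else that the labels state: overnight infection of preadipocytes with the hairpin retrovirus, puromycin at 2 ug/ml for 2 days, then 8 days of 850 nM insulin, with rosiglitazone in the first 2 days. The labels do not say whether a group was 1 infection or several, so the p-values rest on a spread between arrays that may be purely technical.

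Lysosomes are acidic compartments that break down material brought in by endocytosis, phagocytosis and autophagy. A proton pump acidifies them, soluble proteases, glycosidases and lipases do the digestion, and heavily glycosylated membrane proteins line the wall. In fat cells they also take part in lipid breakdown, through lysosomal acid lipase, and in the turnover of mitochondria.

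All values below are intensities as deposited, on a linear scale, as mean ± SD (n = 2 arrays), and every difference is shTRPV4 minus shGFP, in log2 units of quantile-normalized intensity + 16. "Rose" and "fell" are used only where limma's Benjamini-Hochberg adjusted p over all 22626 probe sets was under 0.05. An exact permutation test of 2 arrays against 2 cannot give a two-sided p below 0.333, so none is given. A result given "without quantile normalization" used the values as deposited, and centring each array on its median was a separate setting. The targeted gene could not serve as a check. Trpv4 read 43.7 and 93.8 in shGFP and 80.1 and 79.5 in shTRPV4 (difference 0.32, 95% interval −0.55 to 1.19, adjusted p = 0.55), and the groups are called by their labels. The adipocyte genes Adipoq and Fabp4 were bright in both groups. Each gene being read by its brightest probe set, 5.33% of all genes rose and 6.0% fell. Of 12 adipocyte markers measured, 5 rose and 0 fell (median 0.40). Markers of preadipocytes and fibroblasts went the other way, with 0 rising and 6 falling among 11 (median −0.56), so the arrays also differed in markers of the differentiation state. Its part in the lysosomal differences was not tested.

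Some lysosomal genes rose and others fell, while most probe sets moved little. Of the 61 probe sets, 7 rose (11.5%, against 4.54% of all probe sets) and 8 fell (13.1%, against 5.36%). They belong to 6 genes that rose on at least 1 probe set (Cd68, Npc1, Mcoln1, Gla, Manba and Neu1) and 5 that fell (Lamp1, Lipa, Ppt1, Lyz1 and Lyz2). Lyz1 was counted through probe sets of the _x_at kind, which can read related transcripts, so Lyz1 and Lyz2 may not be separate falls. With each gene read by its brightest probe set, 5 of 36 rose and 5 of 36 fell (13.9% each, against 5.33% and 6.0% of all 12393 genes), and Gla was not among them. Bright probe sets passed more often on the whole array, and 51 of the 61 lay above the median level. Among probe sets above that level, 5 of the 51 rose (9.8%, against 7.06%) and 6 fell (11.8%, against 8.13%). When only the probe sets above that level were fitted, 12 of the 51 rose (23.5%, against 23.4% of all fitted) and 11 fell (21.6%, against 19.7%), so the members' shares were then near those of the array.

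The median difference of the set was 0.02, against 0.015 over all probe sets, and 37 of the 61 (60.7%) differed by less than 0.25 in either direction, against 63.4% of all. The deposited values of the 2 groups did not overlap and were higher in shTRPV4 for 23 of the 61 (37.7%, against 26.2% of all probe sets). They did not overlap and were lower for 17 (27.9%, against 30.3%). The values overlapped for the remaining 21. These counts used values before quantile normalization, and 51 of the 61 lay above the median level. The brightest probe set of Fabp4 was also higher without overlap (18222 and 18099 against 19142 and 19625). Its difference after normalization was 0.0. The part of scaling in the counts was not tested.

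**Figure D1:**
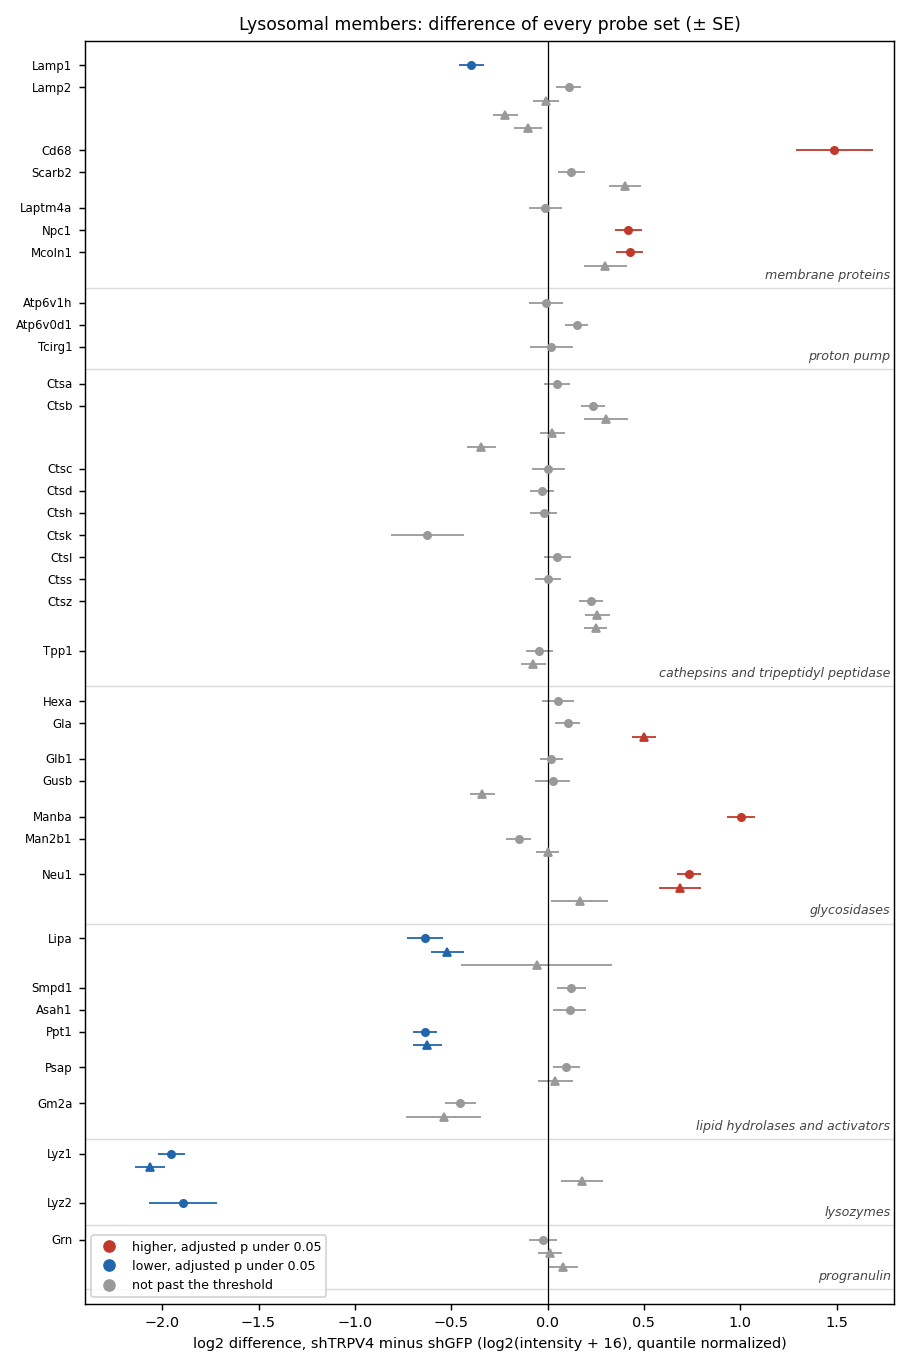
Each point is 1 probe set, placed by its log2 difference (shTRPV4 minus shGFP, horizontal axis) with its standard error, and grouped by gene and role on the vertical axis; circles mark each gene's brightest probe set and triangles the others. Most points lie near 0, the 3 lysozyme probe sets past the threshold lie near −2, and Cd68 lies highest at 1.49.

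Many lysosomal genes carry a CLEAR element in their promoter, a palindrome around an E-box that the transcription factor TFEB and its relatives bind. The search covered the 250 bases before the start of each gene in RefSeq's promoter windows (GRCm38.p6), on both strands, for the 8 bases GTCACGTG (on the other strand CACGTGAC), which contain the 6-base E-box CACGTG. Windows existed for 31 of the 36 genes. The 8 bases were present in 6 of them (19.4%), against 2.11% of 27025 genes with a window, and in 8 of 35 other lysosomal genes (22.9%). The 6-base E-box, counted also where it lies inside the 8 bases, was present in 7 of the 31 (22.6%), against 6.86%. The 6 genes were Ctsa, Ctsd, Gla, Glb1, Lamp1 and Mcoln1. Windows of 30 bases are shown for the 2 of them that passed on their brightest probe set, Mcoln1 and Lamp1, and for Gla, which passed on its dimmer one, because the element stands before genes that went in opposite directions. Each is written 5′ to 3′ on the strand of the gene, with the 8 matching bases in capitals. The Mcoln1 windows are chr8:3500435-3500464 and chr8:3500463-3500492 on the plus strand, the Lamp1 window is chr8:13159122-13159151 on the plus strand, and the Gla window is chrX:134601183-134601212 on the minus strand.
Mcoln1, distal: gggtcgcgcttGTCACGTGttcagttcagg
Mcoln1, proximal: ggcgccccgctCACGTGACcgcggcgcatg
Lamp1: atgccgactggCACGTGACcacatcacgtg
Gla: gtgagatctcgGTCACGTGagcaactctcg

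The capitals end 66 and 38 bases before the Mcoln1 start, 21 before that of Lamp1 and 189 before that of Gla. By their brightest probe sets, 1 of the 6 genes with the 8 bases rose and 1 fell, with a median of 0.03 and a range from −0.40 to 0.43. Of the 25 without it, 3 rose and 4 fell, with a median of 0.02 and a range from −1.95 to 1.49. The E-box is a match of letters in a window, and binding was not measured.

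Among the membrane proteins, 3 of 7 genes rose and 1 fell, against 5.33% and 6.0% of all genes. Lamp1, with Lamp2 the main glycoprotein of the lysosomal wall, read 7688 and 7859 in shGFP and 5838 and 6337 in shTRPV4. Both shTRPV4 arrays were below both controls, and Lamp1 fell from 7773 ± 120.9 to 6087 ± 352.6 (−0.40, SE 0.07, adjusted p = 0.048). Lamp1 no longer passed without quantile normalization (adjusted p = 0.085), with median centring (−0.26, adjusted p = 0.11), or with an offset of 1 (−0.40, adjusted p = 0.082). Lamp2 did not follow it: its 4 probe sets ran from −0.22 to 0.11, with 1 positive and 3 negative, and none passed. The brightest of them read 7696 ± 177.0 and 8612 ± 342.8 (0.11, 95% interval −0.07 to 0.29).

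Mcoln1 encodes mucolipin 1, the calcium-releasing cation channel of the lysosome and, like Trpv4, a TRP channel. Its brightest probe set, of the _s_at kind, read 658.6 and 703.9 in shGFP and 845.6 and 948.7 in shTRPV4. All shTRPV4 values were higher, and the probe set rose by 0.43 (SE 0.07, adjusted p = 0.049). The dimmer one read 375.8 and 465.5 against 467.9 and 528.3. Those groups lay close together without overlapping, and the probe set did not pass (0.30, SE 0.11, adjusted p = 0.18). Probe sets whose names end in _s_at or _x_at can read related transcripts. Mcoln1 also failed the threshold without quantile normalization (0.39, adjusted p = 0.094) and as the average of both probe sets (0.36, adjusted p = 0.070).

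Npc1, the cholesterol exporter of late endosomes and lysosomes, read 414.1 and 465.0 in shGFP and 553.6 and 592.2 in shTRPV4. The groups did not overlap, and Npc1 rose by 0.42 (SE 0.07, adjusted p = 0.047), though not without quantile normalization (0.37, adjusted p = 0.10). Its soluble partner Npc2, not in the set, read 10258 ± 148.9 and 11689 ± 497.7 (0.13, SE 0.06, adjusted p = 0.27). Scarb2, the receptor that brings glucocerebrosidase to lysosomes, differed by 0.12 and 0.40 on its 2 probe sets, of which neither passed (adjusted p = 0.33 and 0.068). Laptm4a, a small transmembrane protein of lysosomes, differed by −0.01 (95% interval −0.26 to 0.23).

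Cd68, a lysosomal glycoprotein abundant in macrophages, had the largest positive difference of the set. It read 41.1 and 66.7 in shGFP and 154.0 and 182.3 in shTRPV4. Each shTRPV4 array was more than double either control. Cd68 rose from 53.9 ± 18.1 to 168.1 ± 20.0 (2.81-fold, 1.49, SE 0.20, adjusted p = 0.035), a call lost with an offset of 1 (1.74, adjusted p = 0.075).

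**Figure D2:**
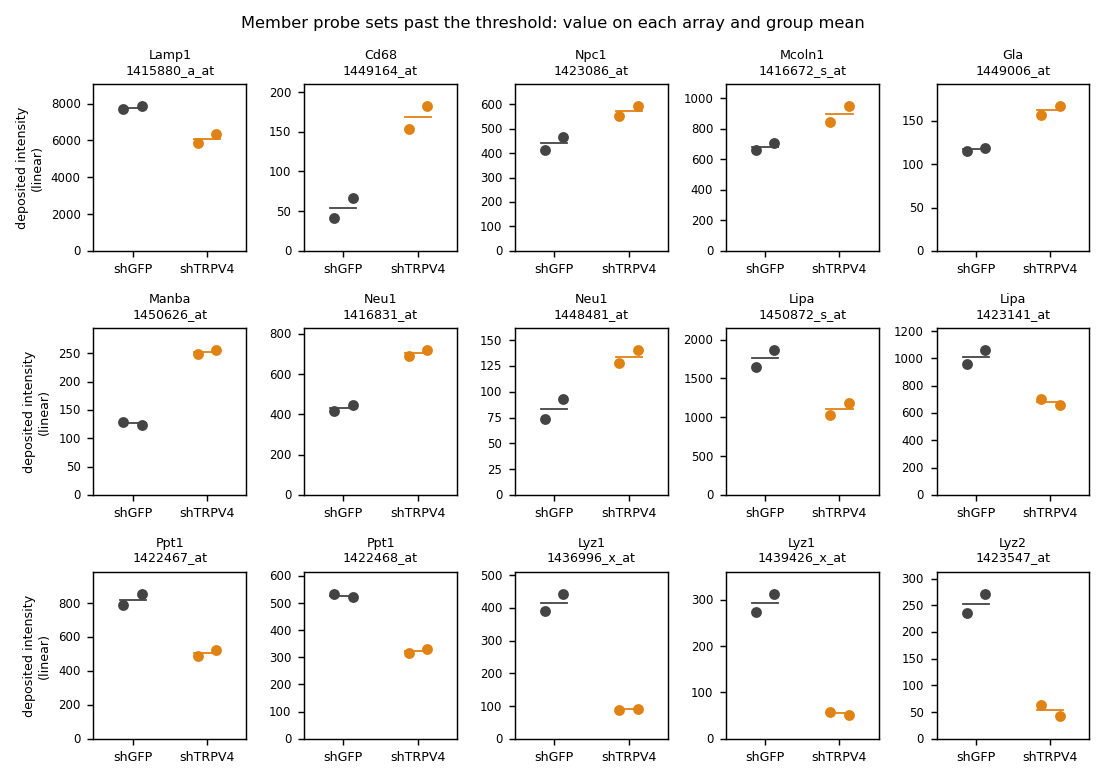
Each panel plots the deposited linear intensity (vertical axis, from 0) of 1 of the 15 member probe sets past the threshold on the 2 shGFP arrays (grey) and the 2 shTRPV4 arrays (orange), with a line at each group mean. In every panel the groups do not overlap; Lyz1 goes from 390.2 and 442.2 to 88.7 and 91.3, and Manba from 128.8 and 123.6 to 249.3 and 255.8.

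The proton pump, or V-ATPase, is a rotary enzyme with a cytosolic V1 part that splits ATP and a membrane V0 part that carries protons. None of the 3 pump genes of the set passed limma's test, and 0 had an unadjusted p under 0.05. Atp6v0d1, a V0 stalk subunit, read 3230 ± 35.3 and 3601 ± 113.8 (0.15, 95% interval −0.02 to 0.32). Atp6v1h, a regulatory V1 subunit, differed by −0.01 (−0.26 to 0.24), and Tcirg1, the a3 subunit of V0, by 0.02 (−0.29 to 0.33).

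Of 13 further pump subunits measured, 2 rose and 0 fell, against 5.33% and 6.0% of all genes. A positive difference was found for 12 of the 13, against 53.5% of all genes. The median of the 13 was 0.24. Atp6v1a, the catalytic subunit of V1, read 2334 and 2315 in shGFP and 3081 and 3155 in shTRPV4 on its brightest probe set. It rose by 0.43 (SE 0.07, adjusted p = 0.042). Atp6v1c1, which ties V1 to V0, rose by 0.38 (SE 0.07, adjusted p = 0.04995), and neither passed without quantile normalization. Of the 13, 7 had an unadjusted p under 0.05 with a positive difference (53.8%, against 17.9% of all genes). That 17.9% includes dim genes, while all 13 lay above the median level of the array. When only probe sets above that level were fitted, 52.3% of them had an unadjusted p under 0.05, in either direction.

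None of the 10 protease genes, read by 16 probe sets, rose or fell in limma's test. Of the 16, 6 had an unadjusted p under 0.05 (37.5%, against 30.6% of all probe sets). Ctsz, a carboxypeptidase, was higher in shTRPV4 on all 3 of its probe sets, by 0.23, 0.26 and 0.25 (SE 0.06 to 0.07, adjusted p from 0.088 to 0.10). Its brightest one read 5037 and 5109 in shGFP and 5936 and 6111 in shTRPV4. The Ctsz groups did not overlap on any probe set, and the differences were below the threshold of the adjusted test. Ctsb, a cysteine protease, gave readings of both signs. Its brightest probe set read 5632 and 6007 against 6957 and 7297 (0.24, adjusted p = 0.10), and its dimmest read 529.4 and 591.8 against 402.5 and 443.1 (−0.34, adjusted p = 0.074). The direction of Ctsb therefore depends on the probe set.

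Ctsk, the collagen-cleaving cathepsin, had the largest difference among the proteases. It read 165.7 and 246.1 in shGFP and 109.0 and 127.1 in shTRPV4. The groups did not overlap, but the 2 controls were far apart (−0.62, SE 0.19, 95% interval −1.16 to −0.09, adjusted p = 0.13). The aspartic protease gene Ctsd read 4568 ± 120.2 and 4465 ± 88.9 (−0.03, 95% interval −0.20 to 0.14). Ctsl, a cysteine protease, read 11756 ± 509.5 and 12699 ± 804.5 (0.05, −0.14 to 0.24). On the quantile-normalized scale, the intervals of Ctsd and Ctsl leave out any difference of 0.25 or more in either direction. For Ctsl the upper limit was 0.2446, and its deposited values were all higher in shTRPV4. These intervals rest on a spread between arrays that may be purely technical, so they may not extend to separate cultures.

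Ctsa, the protective protein that holds Neu1 and Glb1 in a complex, differed by 0.05 (−0.14 to 0.24). Ctsh, an aminopeptidase, differed by −0.02 (−0.22 to 0.18). Tpp1, a tripeptidyl peptidase, differed by −0.04 and −0.07 on its 2 probe sets. Ctsc, which activates granule proteases of immune cells, and Ctss, the cathepsin of antigen-presenting cells, read 17.7 and 12.4 in shGFP, near or below the offset of 16, where a change would be hard to see. Among 4 cathepsin inhibitor genes outside the set, 1 fell. Cstb, cytosolic cystatin B, read 6069 and 6186 in shGFP and 3772 and 3744 in shTRPV4 on its brightest probe set. It fell by 0.73 (SE 0.06, adjusted p = 0.020), and its other probe set fell by 0.67. Cst3, the secreted cystatin C, differed by 0.11 (adjusted p = 0.33).

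Of 7 glycosidase genes, 2 rose on their brightest probe sets and 1 more, Gla, on its dimmer one, and 0 fell. By brightest probe set, 5.33% of all genes rose and 6.0% fell. Manba, the beta-mannosidase that removes the last mannose from N-linked glycans, read 128.8 and 123.6 in shGFP and 249.3 and 255.8 in shTRPV4. The level doubled with little spread, from 126.2 ± 3.71 to 252.5 ± 4.59 (2.004-fold, 1.003, SE 0.07, adjusted p = 0.017). Neu1, the lysosomal sialidase, read 416.6 and 448.9 in shGFP and 692.2 and 719.4 in shTRPV4. It rose by 0.73 (SE 0.06, adjusted p = 0.020).

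A second Neu1 probe set read 73.7 and 92.8 against 127.9 and 140.4. It rose by nearly as much (0.69, SE 0.11, adjusted p = 0.044), though not without quantile normalization (adjusted p = 0.071). The third read under 11 on every array, below the offset (0.17, adjusted p = 0.52). Gla, alpha-galactosidase A, read 115.4 and 119.1 in shGFP and 157.1 and 167.0 in shTRPV4 on its dimmer probe set, and rose there by 0.50 (SE 0.06, adjusted p = 0.031), though not without quantile normalization (0.42, adjusted p = 0.058). On its brighter probe set Gla read 558.4 ± 6.39 and 582.3 ± 5.95 and did not pass (0.10, 95% interval −0.08 to 0.28). The interval of the brighter one ends below that of the dimmer one, 0.32 to 0.67, so the probe sets disagree on the size.

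The other glycosidases did not pass. Hexa, the alpha subunit of beta-hexosaminidase, differed by 0.05 (−0.18 to 0.29), and Glb1, beta-galactosidase, by 0.02 (−0.15 to 0.19). Man2b1, the alpha-mannosidase of lysosomes, read 1213 ± 57.5 and 1069 ± 29.2 (−0.15, adjusted p = 0.22). Its second probe set was listed at exactly 1 on all 4 arrays. Gusb, beta-glucuronidase, differed by 0.03 on its brighter probe set and by −0.34 on the other (142.8 and 151.3 against 101.7 and 109.1, adjusted p = 0.059).

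Among the genes of lysosomal lipid breakdown, 2 of 6 fell and 0 rose, against 6.0% and 5.33% of all genes. Ppt1, which strips palmitate from proteins, read 786.6 and 853.0 in shGFP and 487.5 and 522.9 in shTRPV4. It fell by 0.64 (1.55-fold, SE 0.06, adjusted p = 0.024). Its second probe set read 533.1 and 520.8 against 315.8 and 329.7 and fell by 0.62 (SE 0.07, adjusted p = 0.029). Ppt1 was the only gene of the set with several probe sets of which all passed.

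Lipa encodes lysosomal acid lipase, which frees fatty acids and cholesterol from esters. Its brightest probe set read 1653 and 1865 in shGFP and 1022 and 1177 in shTRPV4, and fell by 0.64 (SE 0.09, adjusted p = 0.039). The second read 958.8 and 1061 against 703.7 and 657.4, and fell by 0.52 (SE 0.09, adjusted p = 0.047). The third read 407.9 and 913.6 in shGFP, more than a doubling between control arrays, and 572.3 and 567.9 in shTRPV4. With that spread its difference of −0.06 has a 95% interval from −1.17 to 1.05, which covers both other readings. Averaged over the 3 probe sets Lipa did not pass (−0.40, adjusted p = 0.19), and without quantile normalization the brightest one did not (adjusted p = 0.052).

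Gm2a, the activator that presents ganglioside GM2 to hexosaminidase, was lower on both probe sets without passing. The brighter read 3773 and 3562 in shGFP and 2709 and 2652 in shTRPV4 (−0.45, SE 0.08, adjusted p = 0.053). The dimmer read 1279 and 936.9 against 740.2 and 714.6 (−0.54, SE 0.20, adjusted p = 0.17). Neither pair of groups overlapped. Psap, the precursor of the saposins that activate sphingolipid hydrolases, differed by 0.10 and 0.04. Smpd1, acid sphingomyelinase, differed by 0.12 (−0.09 to 0.34), and Asah1, acid ceramidase, by 0.11 (−0.12 to 0.35). Grn encodes progranulin, a secreted glycoprotein processed in lysosomes. Its 3 probe sets differed by −0.02, 0.01 and 0.08, and their values overlapped between groups.

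The lysozymes had the largest differences of the set. Lysozyme cuts the peptidoglycan of bacterial walls. Mice have 2 adjacent genes, Lyz1 in Paneth cells and Lyz2 in macrophages, and both lie on chromosome 10. Lyz2 read 234.8 and 271.0 in shGFP and 63.8 and 42.8 in shTRPV4. It fell from 252.9 ± 25.6 to 53.3 ± 14.8 (3.71-fold, −1.89, SE 0.18, adjusted p = 0.021), a call lost with an offset of 1 (−2.16, adjusted p = 0.055).

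The brightest probe set annotated as Lyz1 read 390.2 and 442.2 against 88.7 and 91.3 and fell 3.87-fold (−1.95, SE 0.07, adjusted p = 0.015). The second read 273.3 and 312.6 against 57.3 and 52.3 and fell 4.18-fold (−2.06, SE 0.08, adjusted p = 0.015). Both are of the _x_at kind, which can read related transcripts. The only Lyz1 probe set without that limit read 11.8 and 7.60 in shGFP and 13.5 and 12.3 in shTRPV4, below the offset in both groups (0.18, adjusted p = 0.36). A fall of Lyz1 apart from Lyz2 could not be told from these probe sets.

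Lyz2 and Cd68 are both used as macrophage markers, and here they went in opposite directions. Of 20 other macrophage markers, 1 rose, 2 fell and 17 did not pass, while 5.33% of all genes rose and 6.0% fell. Their median was 0.07, and 1 of the 20 was brighter than the median probe set of the array. Their summed intensity was 993.6 and 1022 in shGFP and 808.4 and 721.4 in shTRPV4. Cd14, a co-receptor for bacterial lipopolysaccharide, made up much of that sum and fell from 465.3 ± 6.40 to 223.3 ± 26.7 (−0.96, adjusted p = 0.032). The lower sum in shTRPV4 thus follows Cd14 and does not show a fall of the markers together. Csf1r fell (−0.85, adjusted p = 0.042; not passed with its probe sets averaged) and Cx3cr1 rose (1.19, adjusted p = 0.033; likewise not passed when averaged). The pan-leukocyte gene Ptprc read between 5.43 and 11.3, C1qa between 3.54 and 8.14 and Cd163 between 1.88 and 5.46. The macrophage and microglia gene Adgre1 read 73.0 and 70.5 against 94.0 and 83.7 (0.33, adjusted p = 0.11). The samples were cultures of a preadipocyte line, and whether they held any macrophages was not measured. A part of any such cells in the Cd68 and lysozyme differences was not tested. In bulk samples, fewer cells of a type and less RNA per cell cannot be told apart.

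Of 43 other lysosomal genes measured, 5 rose and 1 fell, against 5.33% and 6.0% of all genes, and 32 lay above the median level. The median difference of the 43 was 0.13. The median over all 12393 genes was 0.02. Tpcn1, a two-pore cation channel of endosomes and lysosomes, read 240.9 and 258.2 in shGFP and 648.0 and 702.0 in shTRPV4 on its brightest probe set. It rose 2.70-fold (1.43, SE 0.07, adjusted p = 0.015). The other Tpcn1 probe sets read under 55 on every array and did not pass (−0.00 and −0.27), and the average of the 3 did not pass (0.39, adjusted p = 0.19).

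Acp5, tartrate-resistant acid phosphatase, read 27.5 and 31.6 in shGFP and 82.2 and 76.9 in shTRPV4. It rose by 1.124 (SE 0.09, adjusted p = 0.018). Galc, galactosylceramidase, rose by 0.53 (adjusted p = 0.038). Acp2, lysosomal acid phosphatase, fell from 1085 ± 220.0 to 462.4 ± 0.948 on its brightest probe set (−1.14, SE 0.18, adjusted p = 0.045). Its other probe sets differed by 0.15 and 0.24 in the opposite direction, and neither passed. Neither Galc nor Acp2 passed as an average over its probe sets (adjusted p = 0.081 and 0.17).

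Soluble lysosomal enzymes are tagged with mannose 6-phosphate in the Golgi. Of 7 genes of that sorting pathway, 1 fell and 0 rose, against 6.0% and 5.33% of all genes. Gnptab, the transferase that starts the tag, read 1387 and 1252 in shGFP and 628.5 and 597.9 in shTRPV4. It fell by 1.05 (2.07-fold, SE 0.10, adjusted p = 0.023), though not with an offset of 1 (−1.07, adjusted p = 0.053). The second probe set fell by 0.90 (adjusted p = 0.019), and the dimmest differed by −0.81 (adjusted p = 0.057). Gnptab was thus lower on all 3 of its probe sets. The receptors of the tag, M6pr and Igf2r, differed by 0.02 and 0.20 and did not pass.

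None of 11 genes of the TFEB family and of mTORC1 docking on lysosomes passed limma's test, while 10 of the 11 differences were positive (median 0.23). Of the 11, 7 had an unadjusted p under 0.05 with a positive difference (63.6%, against 17.9% of all genes). The 2 shares are not matched for brightness, because 8 of these 11 genes exceeded the array's median level and the 17.9% counts dim genes too. With the dim filter at the 50th percentile, unadjusted p was below 0.05 for 52.3% of all fitted probe sets, counting both signs. Tfeb, on a dim probe set, read 38.6 and 26.8 in shGFP and 60.1 and 64.3 in shTRPV4 (0.75, SE 0.14, adjusted p = 0.057). Of 16 autophagy genes, 3 rose and 1 fell (median 0.16), against 5.33% and 6.0% of all genes. All 16 lay above the median level, where probe sets passed more often on the whole array. Those that rose were Ulk1, the kinase that starts autophagy (0.82, adjusted p = 0.046), Atg16l1 (0.53, adjusted p = 0.034) and Atg7 (0.48, adjusted p = 0.039), which act in LC3 lipidation. Wipi2, which recruits Atg16l1, fell by 0.43 (adjusted p = 0.038). None of these 4 passed without quantile normalization, and Atg7 did not pass as an average of its probe sets (adjusted p = 0.052).

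**Figure D3:**
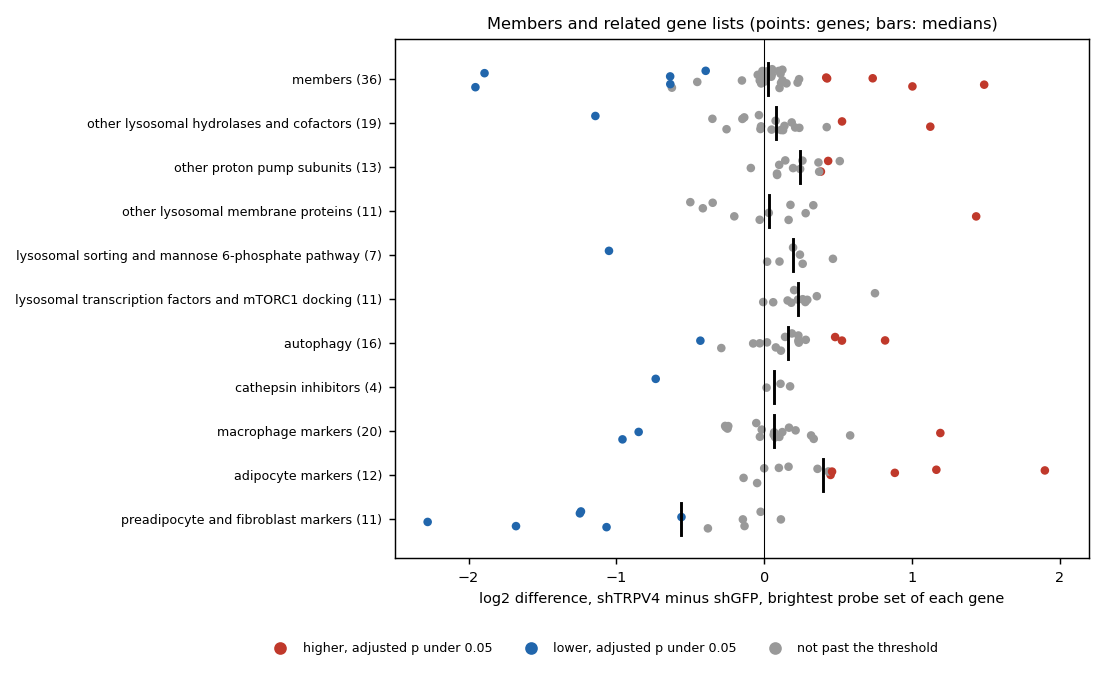
Each point is 1 gene, placed by the log2 difference (shTRPV4 minus shGFP, horizontal axis) of its brightest probe set, with a bar at the median of each list and the number of measured genes in brackets (small vertical scatter only separates points). The median of the lysosomal set lies at 0.02, that of the other pump subunits at 0.24 and that of the preadipocyte and fibroblast markers at −0.56.

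Within genes, probe sets gave 1 sign for 11 of the 16 members that had several and both signs for 5. Those 5 were Lamp2, Ctsb, Gusb, Lyz1 and Grn. In 5 of the 16 some probe sets passed and others did not (Mcoln1, Gla, Neu1, Lipa and Lyz1). Of the 15 probe sets that passed, those of Manba (1), Neu1 (1 of 2) and Lyz1 (2) passed under each of 7 alternatives that fitted them. These 7 changed scaling, offset, dim probe sets and the variance trend. The replicate block was not among the 7, and with it limma called 0 of the 61 probe sets. The dimmer of these Lyz1 probe sets was left out by the filter at the 50th percentile. With any 1 array left out, limma called 0 of the 61 probe sets, with 18 to 26 at an unadjusted p under 0.05 (29.5% to 42.6%, against 20.1% to 26.1% of all probe sets), in fits with 1 residual degree of freedom; 0 probe sets on the whole array were called in these fits. The shares of all probe sets include dim ones, while 51 of the 61 lay above the median level. All 15 kept their direction in each of the 4 fits without 1 array. The other 11 of the 15 no longer passed with an offset of 1. Of the genes named here from other lists as rising or falling, Acp5, Tpcn1 and Cstb passed with that offset and the rest did not.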

How the data were processed

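Total RNA of 4 samples was hybridised to Affymetrix mouse arrays as biotin-labelled cRNA, per the labels' protocols. The authors deposited 1 linear intensity per probe set and array. How they summarised and scaled probes is not given in the sources used here. Array medians ran from 129.4 to 144.0. Without detection calls, background could not be judged. Precision is limited by having 2 arrays in each group.

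Intensities were taken as log2(intensity + 16), quantile normalized and fitted over all 22626 probe sets by lmFit and eBayes (limma 3.58.1, R 4.3.3), with 2 residual and 1.80 prior degrees of freedom. The steps were tested on simulated data. Fold changes on this scale understate changes of dim probe sets. A gene is represented by its probe set with the highest mean. The annotation gave 1 symbol to 20380 probe sets, several to 691 and none to 1555; all 36 member gene IDs matched RefSeq's GRCm38.p6 table. Lists got no set test.

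The members and lists were chosen with earlier results of these data known. Array values are given for members with a probe set past the threshold or differing by at least 0.5; of other lists, up to 5 genes past it are named. Members, Npc2, Cst3, Tfeb, M6pr, Igf2r and the macrophage markers that did not pass were named as well, some after their values were seen. Alternatives changed the scaling (values as deposited, without quantile normalization, or median centring), the offset (1 or 64), a filter at the 25th or 50th percentile, the variance trend, the probe set per gene, the replicate block and single arrays.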

Additional observations from a re-analysis of the deposited data

How the results depend on the processing

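Counts are of lysosomal probe sets higher and lower (main 7 and 8), of member genes higher and lower (5 and 5) and of other lysosomal genes higher and lower (5 and 1). With the values as deposited they were 3 and 6, 3 and 3, and 3 and 1. With an offset of 1 they were 2 and 2, 2 and 1, and 2 and 0, and with 64 they were 12 and 11, 7 and 6, and 12 and 1. Median centring gave 8 and 7, 6 and 4, and 9 and 1, and moved the median of the 61 probe sets from 0.02 to 0.12 and that of all probe sets from 0.015 to 0.085. The intensity trend gave 12 and 11, 7 and 6, and 12 and 1. A dim filter at the 25th percentile gave 8 and 11, 5 and 6, and 10 and 1, and at the 50th 12 and 11, 6 and 6, and 11 and 2. The whole array moved with the settings. The lysosomal probe sets called higher and lower were 4.92% and 9.84% with the values as deposited (all probe sets 2.65% and 5.13%), 3.28% and 3.28% with an offset of 1 (0.796% and 1.88%), and 19.7% and 18% with 64 (9.41% and 8.78%). They were 13.1% and 11.5% with median centring (7.35% and 5.04%), 19.7% and 18% with the trend (9.59% and 8.75%), 14.3% and 19.6% of 56 with the filter at the 25th percentile (12.3% and 11.6%), and 23.5% and 21.6% of 51 at the 50th (23.4% and 19.7%). With probe sets averaged, 4 and 4 member genes and 3 and 0 other lysosomal genes passed.

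With the replicate block, or without any 1 array (range 0 to 0), limma called 0 in every count, with 27 and 18 to 26 of the 61 probe sets at an unadjusted p under 0.05 (44.3% and 29.5% to 42.6%, against 30.3% and 20.1% to 26.1% of all probe sets). The shares of all probe sets include dim ones, while 51 of the 61 lay above the median level. Labels share only replicate numbers between groups, and same-numbered arrays deviated with a correlation of 0.119, which does not establish pairs. Trpv4 ranged from −0.093 (without replicate 1 of shGFP, opposite in sign) to 0.73 without 1 array. Lyz1 turned to 0.18 when probe sets of the _s_at and _x_at kinds were passed over. The cause of these changes was not tested. No depth or signal over background is known for these values.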
